A study of Mus musculus with 3 samples.

Results

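Histamine and serotonin are made from amino acids, packed into secretory granules and released when mast cells degranulate. The 6 genes described here act in this chain: Hdc, Tph1 and Ddc in synthesis, Slc18a2 in loading of granules, Slc6a4 in uptake from outside the cell, and Gnmt, a methyltransferase set beside them. They were taken by symbol from a table of 20677 genes, and all 6 were found. The 6 were chosen by name, and earlier results of these data were known when they were chosen. The level of each was read in 3 libraries of skin mast cells, sorted 1 week after birth from mice of a mixed C57BL/6xCD1xFVB background. All of the mice carried an EYFP reporter and an inducible Cre recombinase that was switched on by a pulse of 4'OHT, the active form of tamoxifen, in the embryo. In the early EMP library (early erythro-myeloid progenitor) Cre was driven by Csf1r and the pulse was given at embryonic day 8.5. In the late EMP library Cre was driven by Runx1 and the pulse was given at day 8.5, and in the fetal HSC library (fetal haematopoietic stem cell) Cre was driven by Runx1 and the pulse was given at day 9.5. Each origin is a name for cells marked by a driver and a pulse time, so the driver and the origin cannot be told apart in comparisons with the early EMP library.

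Histamine is formed in 1 step, when histidine decarboxylase (Hdc) removes the carboxyl group of histidine. Serotonin takes a pair of steps: tryptophan hydroxylase (Tph1) adds a hydroxyl group to tryptophan with tetrahydrobiopterin as a cofactor, and the aromatic amino acid decarboxylase (Ddc) then removes the carboxyl group. The vesicular monoamine transporter (Slc18a2, also called VMAT2) exchanges protons of the acid granule for either amine, and the serotonin transporter (Slc6a4) carries serotonin into the cell with sodium and chloride. Skin mast cells of rodents are known to hold both amines on the serglycin matrix of their granules.

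Each origin has 1 library, so nothing below could be checked against replicates or tested. Series of 3 values run in the order early EMP, late EMP, fetal HSC, and series of 3 log2 fold changes in the order late against early EMP, fetal HSC against early EMP, fetal HSC against late EMP, with the first-named origin as the numerator. The connective tissue mast cell markers, among them Kit, Fcer1a, Cma1 and Mrgprb2, lay between 38.8 and 80925 FPKM in all 3 libraries, all 9 of them present, as the label of the sort says. Levels are in FPKM, a unit in which fragments are divided by transcript length and by the mapped fragments of the library, so genes can be set side by side. The depth was not stated; the steps between low values implied 14.5, 15.0 and 16.6 M fragments, an imprecise estimate. RNA of the X-linked Xist was at 25.6, 0.53 and 52.0 FPKM and of the Y-linked Ddx3y at 20.7, 38.5 and 0.32 FPKM, so sex-linked RNA moved with origin, and the sex of the animals cannot be told apart from it.

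The amine genes were led by Hdc in every library, and only the serotonin transporter was at least 2-fold apart in any comparison. Among the 5 genes at 1 FPKM or more, Slc6a4 was 2.13-fold lower in fetal HSC than in early EMP mast cells. Tph1 was 1.69-fold and 1.82-fold lower in late EMP and fetal HSC than in early EMP cells. Hdc, Slc18a2 and Ddc were at most 1.24-fold apart in all 3 comparisons. Gnmt was under 1 FPKM throughout.

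**Figure D1:**
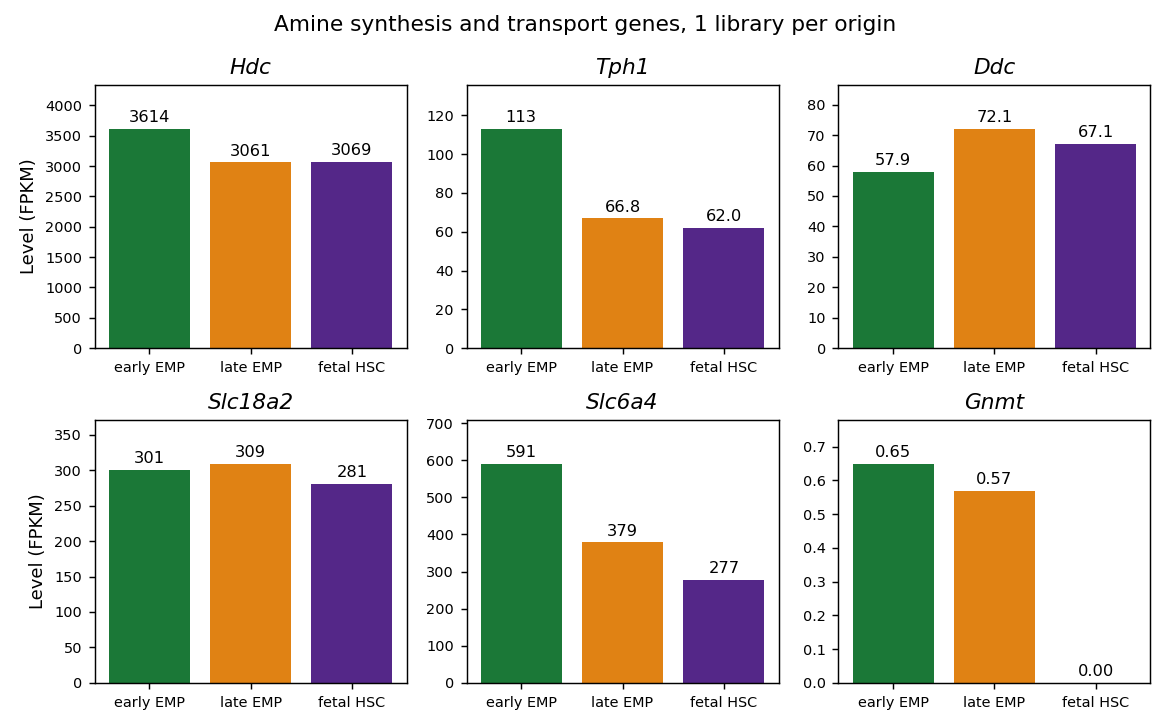
Level of each of the 6 genes (vertical axis, FPKM, each panel on its own scale from 0) in each of the 3 libraries, named under the bars; each bar is 1 library and has no error bar. Hdc stands at 3061 to 3614 FPKM, Slc6a4 steps down from 591 to 379 and 277, and Gnmt is at 0.65, 0.57 and a listed 0.

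Hdc (chromosome 2, 126593659 to 126624025, minus strand, GRCm38) had 3614 FPKM in early EMP mast cells, 3061 in late EMP and 3069 in fetal HSC mast cells. The late EMP and fetal HSC libraries were level with each other, and the early EMP library was above both. It ranked 15, 15 and 17 among all genes in the table, and alone took 0.566%, 0.498% and 0.479% of the summed FPKM. The log2 fold changes, computed as log2 of the ratio of (FPKM + 1), were -0.24, -0.24 and 0.004. Its value came from 1 RefSeq transcript and 2 transcripts that the submitters added.

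Tph1 (chromosome 7, 46644641 to 46672537, minus strand), which catalyses the rate-limiting step of serotonin synthesis outside the brain, had 113 FPKM in early EMP mast cells, 66.8 in late EMP and 62.0 in fetal HSC mast cells. The early EMP library thus stood alone, and the pair with the Runx1 driver lay close together. The log2 fold changes were -0.75, -0.86 and -0.11. Tph1 ranked 561 in early EMP, 1038 in late EMP and 1117 in fetal HSC cells. The value is summed over 3 RefSeq transcripts, so a shift between them could not be seen.

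Ddc (chromosome 11, 11814101 to 11898144, minus strand) had 57.9 FPKM in early EMP mast cells, 72.1 in late EMP and 67.1 in fetal HSC mast cells. It was lowest where Tph1 was highest. The log2 fold changes were 0.31, 0.21 and -0.10. Because both enzymes act on the same route, their ratio within a library was also read, which no scaling of the library can move. Tph1 was at 1.95 times the level of Ddc in the early EMP library and at 0.927 and 0.924 times in the late EMP and fetal HSC libraries. Ddc contains in its introns a gene on the other strand, 1700042O10Rik, which was picked out after its values were seen. It was at 13.1, 49.9 and 46.0 FPKM and shares 0 exonic bases with Ddc in the GENCODE annotation. The Ddc value came from 2 RefSeq transcripts and 1 that the submitters added, whose exons this overlap does not cover.

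Between the decarboxylases, Hdc was at 62.4 times the level of Ddc in early EMP cells, 42.5 times in late EMP and 45.7 times in fetal HSC cells. Hdc was at 32.0, 45.8 and 49.5 times the level of Tph1 in the same order. The enzyme that opens the histamine route was thus above both enzymes of the serotonin route in all 3 libraries, and its margin over Tph1 was smallest in the early EMP library. These are levels of RNA, and no amine was measured.

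Slc18a2 (chromosome 19, 59260878 to 59296012, plus strand) had 301 FPKM in early EMP mast cells, 309 in late EMP and 281 in fetal HSC mast cells. Its log2 fold changes were 0.04, -0.10 and -0.14. The granule transporter was thus at most 1.10-fold apart in every comparison, and its sign in late against early EMP turned with the scaling of the libraries. Part of its first exon lies opposite an antisense gene, Gm29261, with 111 shared exonic bases; the labels and headers do not say whether counting used the strand.

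Slc6a4 (chromosome 11, 76998597 to 77032343, plus strand) had 591 FPKM in early EMP mast cells, 379 in late EMP and 277 in fetal HSC mast cells. The 3 libraries were ordered, with the fetal HSC library lowest. The log2 fold changes were -0.64, -1.09 and -0.45. At the implied depth these levels correspond to 22501, 14802 and 11981 fragments, to the precision of that estimate, so counting error is small beside the differences, while the variation between animals was not measured. Slc6a4 ranked 91, 159 and 233 among all genes.

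The steady granule transporter gives a reference for the membrane transporter. Slc6a4 was at 1.96 times the level of Slc18a2 in early EMP cells, 1.22 times in late EMP and 0.986 times in fetal HSC cells. With Kit, the stem cell factor receptor of mast cells, as the reference, Slc6a4 was at 1.43 times its level in the early EMP library and at 0.625 and 0.683 times in the late EMP and fetal HSC libraries. The early EMP library was highest by either reference. The order of the late EMP and fetal HSC libraries turned with the reference, since Kit itself was at 414, 606 and 405 FPKM.

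Gnmt (chromosome 17, 46725664 to 46729211, minus strand) encodes glycine N-methyltransferase, which passes the methyl group of S-adenosylmethionine to glycine and is best known from liver. It neither makes nor carries an amine, although the same methyl donor serves the enzyme that methylates histamine. Its level was 0.65 FPKM in early EMP and 0.57 in late EMP cells, and it is listed at 0 in fetal HSC cells. At the implied depth the first pair of values correspond to 8.81 and 7.82 fragments. A listed 0 in an FPKM table can also be a failed estimate. Fold changes against it are given below only to show how they move with the pseudocount.

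The members were also read beside all genes, counting those at least 2-fold apart on the log2(FPKM + 1) scale. Late over early EMP had 0 of 5 members at least 2-fold apart, while 19.5% of all 14412 genes at 1 FPKM or more in 1 library were, and 11.8% of the 11529 among them with a symbol. Fetal HSC over early EMP had 1 of 5, Slc6a4, against 26.0% of all genes and 16.7% of those with a symbol. Fetal HSC over late EMP had 0 of 5, against 11.7% and 8.09%. With 5 members, these counts are not set apart from the background. The members' median log2 fold changes were -0.24, -0.24 and -0.11, and those of all genes with a symbol were 0.06, -0.03 and -0.08. The 2 comparisons over early EMP share that library, so the lower Slc6a4 and Tph1 in both are not independent.

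**Figure D2:**
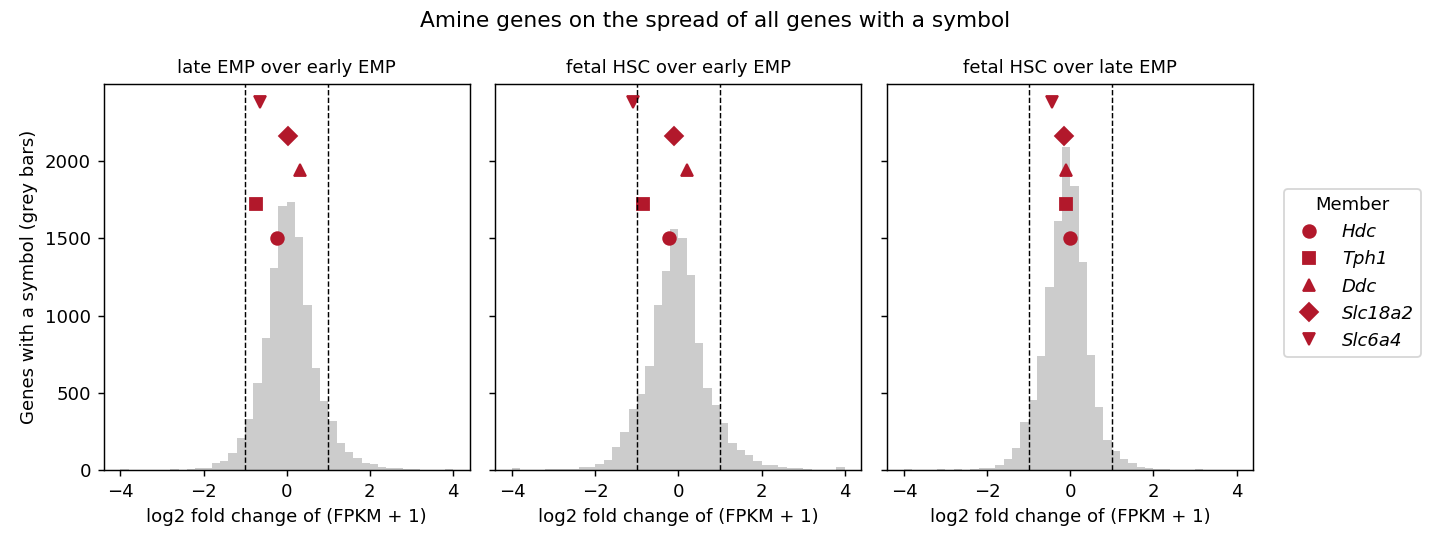
Log2 fold change of (FPKM + 1) on the horizontal axis for 3 comparisons; grey bars count all genes with a symbol at 1 FPKM or more in 1 library (vertical axis), with values beyond 4 in either direction placed in the end bars. Red symbols mark 5 amine genes, their height carries no value, and dashed lines mark 2-fold; only Slc6a4 in fetal HSC against early EMP lies past a line, at -1.09.

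On the spread of genes with a symbol, 6.85% had a log2 fold change at or below that of Slc6a4 in fetal HSC against early EMP, and 10.9% in late against early EMP. For Tph1 the shares were 11.6% and 8.25%. Hdc stood at 37.0% and 28.2%, and Slc18a2 at 45.5% and 48.6%, near the middle. Ddc stood above the middle, at 66.2% and 68.4%.

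The sequence before the start sites is shown for the genes whose levels differed most, Slc6a4 and Tph1, beside Hdc and Slc18a2, which differed less. Each run is the 250 bases before a RefSeq start site, 5′ to 3′ on the strand of the gene, in GRCm38.p6; all 6 genes matched the RefSeq table. Capitals mark 4 hexamers bound by GATA factors, AGATAA and AGATAG and TGATAA and TGATAG, and a pair of E-boxes bound by Mitf, CATGTG and CACGTG, searched on both strands. No match overlapped another. Tph1 has 2 start sites in the table, and the FPKM values do not separate them. The Hdc start site used, 126618678, lies within the gene span given above, not at its outer end, 126624025. The windows are Hdc chr2:126618679-126618928 (minus strand), Slc6a4 chr11:76998347-76998596 (plus strand), Slc18a2 chr19:59260628-59260877 (plus strand), the outer Tph1 start chr7:46672538-46672787 (minus strand) and the inner Tph1 start chr7:46667378-46667627 (minus strand).
Hdc: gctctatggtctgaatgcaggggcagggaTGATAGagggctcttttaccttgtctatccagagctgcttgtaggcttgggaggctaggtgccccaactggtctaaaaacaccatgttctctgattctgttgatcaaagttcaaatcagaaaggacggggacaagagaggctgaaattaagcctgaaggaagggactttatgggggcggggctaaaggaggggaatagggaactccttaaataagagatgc
Slc6a4: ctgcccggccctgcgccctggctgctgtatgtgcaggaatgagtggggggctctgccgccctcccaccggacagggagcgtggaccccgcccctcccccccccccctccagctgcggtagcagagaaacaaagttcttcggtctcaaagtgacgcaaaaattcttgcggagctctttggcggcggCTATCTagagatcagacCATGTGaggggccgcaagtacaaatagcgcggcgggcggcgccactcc
Slc18a2: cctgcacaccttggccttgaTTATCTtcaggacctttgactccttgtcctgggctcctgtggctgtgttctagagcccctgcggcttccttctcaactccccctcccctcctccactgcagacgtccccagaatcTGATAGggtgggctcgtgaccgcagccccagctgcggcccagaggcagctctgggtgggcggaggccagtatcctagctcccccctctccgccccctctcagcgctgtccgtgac
Tph1 outer start: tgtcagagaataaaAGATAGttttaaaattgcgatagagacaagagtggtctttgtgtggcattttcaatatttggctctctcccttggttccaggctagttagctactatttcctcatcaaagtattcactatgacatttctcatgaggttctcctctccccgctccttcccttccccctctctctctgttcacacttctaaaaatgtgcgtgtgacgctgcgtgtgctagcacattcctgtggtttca
Tph1 inner start: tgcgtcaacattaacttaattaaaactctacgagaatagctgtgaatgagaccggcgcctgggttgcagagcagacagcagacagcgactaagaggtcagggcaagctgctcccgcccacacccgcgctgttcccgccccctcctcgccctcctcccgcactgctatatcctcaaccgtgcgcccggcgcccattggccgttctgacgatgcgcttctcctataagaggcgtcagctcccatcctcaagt

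The 6 genes have 8 such windows, of which 5 hold a GATA hexamer and 1 an E-box. The hexamer was found in the windows of Hdc, Slc6a4, Slc18a2, Gnmt and the outer Tph1 start, and the E-box in that of Slc6a4. The inner Tph1 window and both windows of Ddc hold neither. In Slc6a4 the hexamer, read as CTATCT on the printed strand, lies 65 to 60 bases before the start and the E-box CATGTG 48 to 43 bases before it. In Hdc the hexamer TGATAG lies 221 to 216 bases before the start. Slc18a2 holds 2 hexamers, at 230 to 225 and 115 to 110 bases. Of all 32851 windows of this length in the table, 26.5% hold at least 1 of the 4 hexamers and 17.6% at least 1 of the E-boxes, so such matches are common. A match is a description of the letters, not of binding.

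The GATA and Mitf genes themselves were read because both factors are known to act on mast cell amine genes. Gata2 had 664 FPKM in early EMP mast cells, 517 in late EMP and 359 in fetal HSC mast cells, in the same order as Slc6a4. Slc6a4 was at 0.891, 0.733 and 0.772 times its level. Gata1 was at 37.4, 44.6 and 38.0 FPKM and Mitf at 30.2, 25.8 and 23.6 FPKM. Fev, the serotonin neuron factor that acts on Slc6a4 in the brain, was at 0.10 FPKM or less. Of the 4 factors analysed out of 5 listed, 3 were at 1 FPKM or more, and none of these 3 was at least 2-fold apart in any comparison. Of all genes with a symbol, 11.8%, 16.7% and 8.09% were. With 3 factors, the count is not set apart from this background. The median log2 fold changes of the 3 were -0.22, -0.34 and -0.23.

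Enzymes that break amines down were dominated by Maob, the monoamine oxidase that also oxidises methylated histamine. It had 678 FPKM in early EMP mast cells, 839 in late EMP and 915 in fetal HSC mast cells, above Slc6a4 in every library and with its order turned round. The log2 fold changes of Maob were 0.31, 0.43 and 0.12. Maoa, the form with the higher affinity for serotonin, was at 1.91, 3.39 and 2.97 FPKM. Maob was at 355, 248 and 308 times the level of Maoa. Of the 4 histamine breakdown and uptake genes analysed out of 8 listed, 3 were at 1 FPKM or more. None of these 3 was at least 2-fold apart on the log2(FPKM + 1) scale. All such counts use this scale, which draws low genes together. Slc22a3, an organic cation transporter that carries histamine, was at 1.77, 3.34 and 3.97 FPKM, a plain FPKM ratio of 2.24 for fetal HSC against early EMP. Aldh7a1, an aldehyde dehydrogenase, was at 1.85, 4.53 and 2.09 FPKM, a plain ratio of 2.45 for late against early EMP. The share of genes with a symbol past 2-fold, 11.8%, 16.7% and 8.09% for the 3 comparisons, stands beside this and every list count that follows. Aoc1, the diamine oxidase, was at 0.05 FPKM or less, and Hnmt, the histamine methyltransferase, was not analysed here. Aldh2, which oxidises the aldehydes that monoamine oxidases leave, was at 11.1, 23.5 and 11.4 FPKM, with a log2 fold change of 1.02 for late against early EMP. The 4 genes analysed of the catecholamine list were under 1 FPKM in every library.

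**Figure D3:**
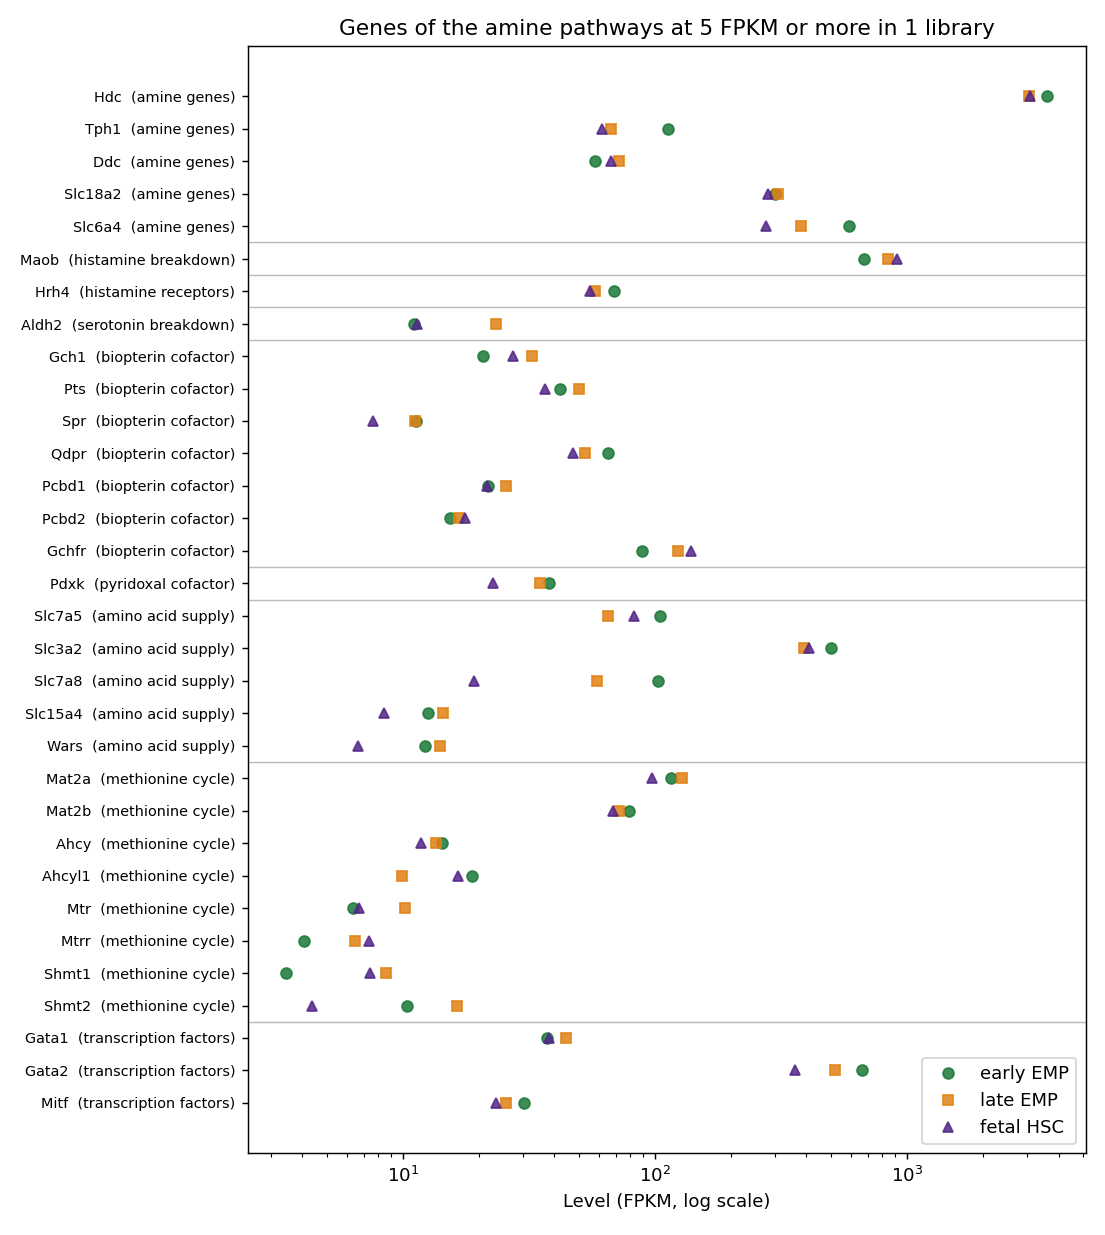
Level (horizontal axis, FPKM, log scale) of amine genes and of genes of breakdown, reception, cofactors, amino acid supply, the methionine cycle and transcription, for those at 5 FPKM or more in 1 library; each symbol is 1 library. Slc6a4, Slc7a8 and Gata2 are among the genes highest in the early EMP and lowest in the fetal HSC library, while Maob runs from 678 up to 915 FPKM.

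Receptors for these amines were few. Hrh4, the histamine receptor of blood and immune cells, was at 68.9, 57.8 and 55.4 FPKM (log2 -0.25, -0.31 and -0.06). Hrh1 and Hrh3 did not exceed 0.16 FPKM. Hrh2 was at 0.05, 0.13 and 1.48 FPKM, the 1 of 2 receptors at 1 FPKM or more that was at least 2-fold apart, in both comparisons of the fetal HSC library. It passed the filter only through that library, so the call is tied to the filter. The 6 serotonin receptors analysed of 14 listed lay at 0.40 FPKM or less.

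The 7 tetrahydrobiopterin genes analysed were at 7.66 FPKM or more in every library, and 0 were at least 2-fold apart in any of the 3 comparisons, with median log2 fold changes of 0.23, -0.02 and -0.24. Gch1, which opens the synthesis of this cofactor of Tph1, was at 20.8, 32.6 and 27.4 FPKM, and Gchfr, its feedback regulator, at 88.8, 124 and 139 FPKM. Qdpr, which recycles the cofactor, was at 65.5, 52.8 and 47.6 FPKM. Pdxk, which makes the pyridoxal phosphate that Hdc and Ddc use, was at 38.2, 35.1 and 22.9 FPKM. The phosphatase Pdxp was the 1 of 2 in this list at least 2-fold apart, lower in fetal HSC than in either EMP library, at 2.33, 1.58 and 0.06 FPKM. It passed the filter only through the EMP libraries.

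The amino acids enter through carriers of the L type, formed by Slc3a2 with a partner. Slc3a2 was at 499, 390 and 409 FPKM, and its partner Slc7a5 at 105, 65.5 and 82.9 FPKM. The other partner, Slc7a8, had 103 FPKM in early EMP mast cells, 59.1 in late EMP and 19.2 in fetal HSC mast cells. It was the 1 of 5 genes of this list at 1 FPKM or more that was at least 2-fold apart, with log2 fold changes of -2.37 for fetal HSC against early EMP and -1.58 for fetal HSC against late EMP, and -0.80 for late against early EMP. Its order over the libraries was that of Slc6a4, with a wider spread.

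The methionine cycle supplies the methyl donor of Gnmt. Mat2a, which makes S-adenosylmethionine outside the liver, was at 116, 128 and 97.3 FPKM and its regulatory subunit Mat2b at 79.1, 72.1 and 68.6 FPKM. Of 13 genes at 1 FPKM or more among 17 analysed, 3 were higher and none lower in late against early EMP, 1 higher and 1 lower in fetal HSC against early EMP, and 2 lower in fetal HSC against late EMP, beside shares of 11.8%, 16.7% and 8.09% of genes with a symbol. Shmt2, the mitochondrial serine hydroxymethyltransferase, was at 10.4, 16.4 and 4.38 FPKM and its cytosolic form Shmt1 at 3.44, 8.61 and 7.39 FPKM. Shmt1 was 1 of the 3 higher in late against early EMP. The others were Nnmt, at 0, 1.26 and 0 FPKM, and Pemt, at 0.17, 2.18 and 1.24 FPKM. Both passed the filter only through libraries where they were high, so these calls are tied to the filter. Nnmt was also 1 of the 2 lower in fetal HSC against late EMP.

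Slc18a2 depends on the proton pump that acidifies granules. Of 19 genes analysed, 18 were at 1 FPKM or more, and their median log2 fold changes were -0.05, -0.12 and 0.11. Atp6v1f, a cytosolic subunit, was at 439, 363 and 400 FPKM and Atp6v0e, a membrane subunit, at 433, 349 and 427 FPKM. The 1 gene at least 2-fold apart was the membrane subunit Atp6v0d2, lower in both comparisons with early EMP, at 9.86, 1.33 and 1.87 FPKM. Next in spread was Tcirg1, another membrane subunit, at 11.7, 12.8 and 6.51 FPKM, with a log2 fold change of -0.88 for fetal HSC against late EMP.

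Profiles like those of the members were sought among 5483 other genes with a symbol at 10 FPKM or more in 1 library, by the root mean square difference between log2(FPKM + 1) values centred over the 3 libraries. Nearest to Slc6a4 were Cbr4 (0.014), Calhm2 (0.021) and Txnl4b (0.023). Nearest to Tph1 were Aldh6a1 (0.012), Bmi1 (0.015) and H13 (0.017). For Hdc they were Mrpl49, Elk4 and Orc5, for Slc18a2 Map2k2, Smim11 and Bzw2, and for Ddc Aldh3a2, Frrs1 and Sh3bgrl3, all within 0.007. Within 0.1 lay 67 genes for Slc6a4 and 86 for Tph1, against 691 for Hdc, 827 for Slc18a2 and 782 for Ddc. The profiles of Slc6a4 and Tph1 differed from each other by 0.14, and that of Slc6a4 from Slc18a2 by 0.41. With 3 libraries a close profile is a weak likeness.

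Other cells are known to use amine genes, and their markers were read beside the results. In bulk RNA, fewer cells of a type and less RNA per cell cannot be told apart. Marker RNA made by the mast cells themselves cannot be told apart from that of other cells either. Platelets take up serotonin through Slc6a4 and store it through Slc18a2. The 7 platelet markers analysed of 8 summed to 121, 104 and 66.9 FPKM, and of the 5 at 1 FPKM or more, 3 were at least 2-fold lower in fetal HSC against early EMP. These 3 were Pf4 at 46.7, 38.3 and 7.05 FPKM, Itga2b at 25.0, 17.4 and 10.95 FPKM and Gp9 at 3.31, 0.97 and 0.87 FPKM, all in the order of Slc6a4. Gp1ba was at 42.5, 44.2 and 44.3 FPKM and Clec1b at 3.77, 2.45 and 3.74 FPKM. Ppbp was at 0, 0.27 and 0 FPKM and Gp1bb at 0, 0.72 and 0 FPKM. Slc6a4 was at 12.7, 9.89 and 39.3 times the level of Pf4. The part of platelet RNA in the Slc6a4 difference was not tested.

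Basophils and immature neutrophils also express Hdc. The sums below are levels of marker RNA, and whether mast cells or other cells made it was not tested. The 5 basophil markers summed to 2849, 970 and 1775 FPKM. Prss34, at 2386, 459 and 989 FPKM, was the largest part of each sum and had the same order, as did Basp1. The basophil protease Mcpt8 at 14.5, 17.5 and 35.9 FPKM and Cd200r3 at 385, 434 and 687 FPKM were highest in fetal HSC. Itga2 was highest in late EMP, at 2.32, 9.05 and 3.95 FPKM. The 6 neutrophil precursor markers analysed of 9 summed to 115, 809 and 916 FPKM, mostly from Ctsg, and Mpo was at 0.88, 39.2 and 47.9 FPKM. In late against early EMP, 5 of the 6 were at least 2-fold higher and 1 was lower. The lower 1 was S100a8, at 1.3, 0 and 28.95 FPKM. All 8 mitosis markers were at least 2-fold higher in both comparisons over early EMP, summing to 27.5, 169 and 177 FPKM. This split between the early EMP library and the others was also that of Tph1, with Tph1 on the high side in early EMP. The 7 macrophage markers summed to 79.3, 54.8 and 22.9 FPKM, in the order of Slc6a4. C1qa, C1qb, C1qc, Csf1r and Mrc1 kept that order, with C1qb at 20.4, 13.3 and 3.96 FPKM. Cd68 at 17.8, 6.44 and 9.7 FPKM and Adgre1 at 0.5, 2.18 and 0.04 FPKM did not. The 5 melanocyte markers summed to 1.59, 13.8 and 40.7 FPKM. The 4 keratinocyte markers summed to 2.29 FPKM or less. The part of these cells and of cell division in the levels of Hdc, Tph1 and Slc6a4 was not tested.

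**Figure D4:**
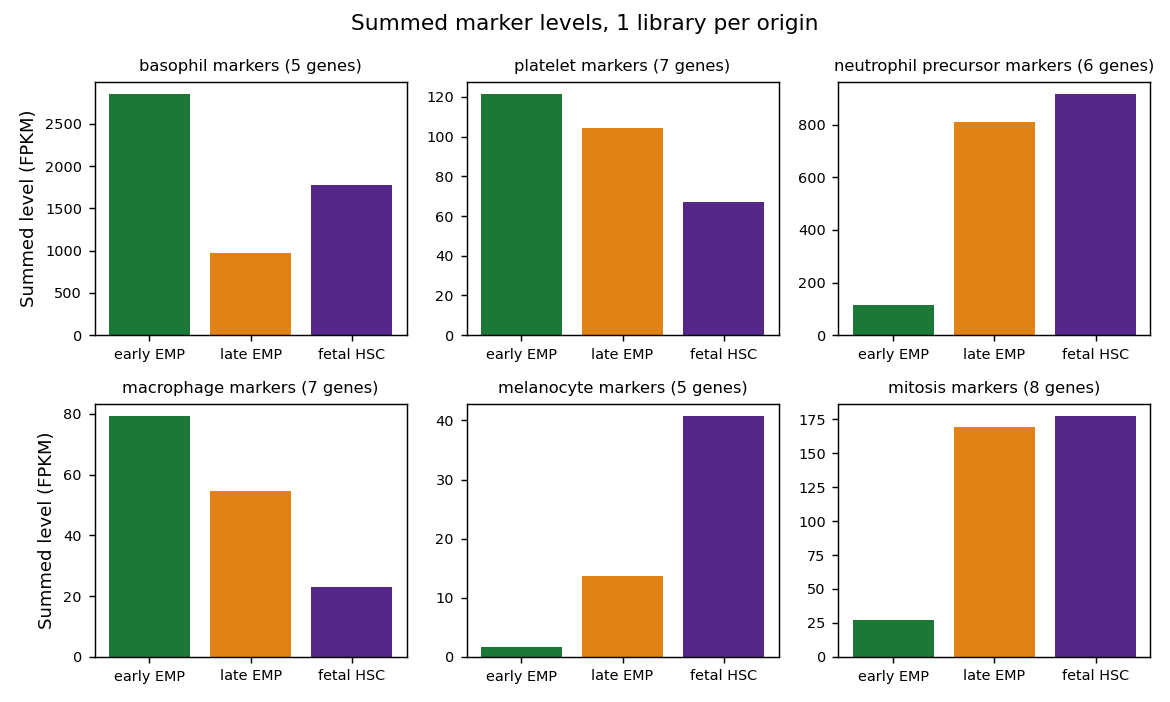
Summed level (vertical axis, FPKM, each panel on its own scale from 0) of 6 marker lists in the 3 libraries; each bar is 1 library and has no error bar. Platelet markers run from 121 to 66.9 FPKM and macrophage markers from 79.3 to 22.9 FPKM, both highest in early EMP, while mitosis markers stand at 27.5 FPKM in early EMP against 169 and 177 in the others. The sums do not show which cells made the RNA.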

How the data were processed

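RNA of skin mast cells was measured in 3 libraries, 1 for each labelled origin. The authors deposited 1 table of FPKM values per gene, per the file headers, with 2 decimals. Alignment with Bowtie2 and estimation with RSEM are named in the submitters' processing notes, with mm10 and GRCm38 as builds and no versions; for strandedness and for the source of the 3064 unnamed regions, the sources used here give nothing. Columns were matched to libraries through their descriptions in the labels.

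From the deposited FPKM values, log2((FPKM + 1) / (FPKM + 1)) was computed for 3 comparisons among genes reaching 1 FPKM in any library, and those at least 2-fold apart were counted. This scale understates changes of low genes. No test was possible. Depth was estimated by fitting a step and a length offset to low values of genes with 1 transcript; 83.1%, 81.7% and 73.8% of 225, 409 and 103 values then lay within 0.15 of a whole fragment, a share raised by fitting to the same values. The members and gene lists were chosen with earlier results of these data known. Some genes of these lists are not reported here and are left out of their counts. Named genes were all members, the 2 most abundant genes of each pathway list, up to 3 at least 2-fold apart at 5 FPKM or more, low genes where stated, Kit, some markers of other cell types, and the 3 nearest profiles of each member; a list gene outside these, such as Gch1, Mitf, Aoc1, Aldh7a1 or Tcirg1, was named for its role or after its values were seen. Other settings tried were a pseudocount of 0.1 or 5 FPKM, leaving out the filter or raising it to 5 FPKM, and 3 rescalings; a restriction to genes with a symbol was added after the data were seen. The 2-fold calls and the depth estimate were tried on simulated data. Coordinates and sequences are from RefSeq (GRCm38.p6) and overlaps from GENCODE. Python 3.11.15, numpy 2.4.6, pandas 2.3.3 and matplotlib 3.10.9 were used.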

Additional observations from a re-analysis of the deposited data

How the results depend on the processing

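The count of members at least 2-fold apart was 0, 1 and 0 for late EMP against early EMP, for fetal HSC against early EMP and for fetal HSC against late EMP under every alternative run. Gnmt was under 1 FPKM, so it was left out of this count wherever a filter was used, also with the pseudocount of 0.1 FPKM. Of 90 fold changes of single members under an alternative, 88 stayed on their side of 2-fold; the 2 others were of Gnmt, which with a pseudocount of 0.1 FPKM had log2 fold changes of -2.91 and -2.74 for the fetal HSC library over early and late EMP, from a listed 0. Slc6a4 ranged from -1.12 to -1.01 in fetal HSC against early EMP, close to the 2-fold line. The sign turned in 5 cases, all of values at 0.11 or less in size: Slc18a2 in late against early EMP and Hdc, Tph1 and Ddc in fetal HSC against late EMP under rescaling. Median-of-ratios factors moved every log2 value by 0.13 in fetal HSC against late EMP before the pseudocount, the 1 shift over 0.1 among the rescalings, and Slc6a4 was then at -0.32. Counts over all genes, 2805, 3749 and 1689 as reported, moved more. With a pseudocount of 5 FPKM they were 328, 460 and 195, and with a filter at 5 FPKM they were 767, 1098 and 524. With a pseudocount of 0.1 FPKM they were 4528 for late against early EMP and 3620 for fetal HSC against late EMP. With genes that have a symbol, a restriction chosen after seeing the data, they were 1359, 1922 and 933. Fewer genes are tested with the filter and with the restriction to symbols. The pseudocounts were run on the same 14412 genes, and by arithmetic a larger pseudocount makes fold changes smaller, most of all for low genes. No paired analysis was possible because each group has 1 library. No replicate could be left out.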

Other observations

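Polyamines are a further class of amines that begins with a decarboxylase. Odc1, the ornithine decarboxylase, had 4.61 FPKM in early EMP mast cells, 9.03 in late EMP and 12.1 in fetal HSC mast cells, with a log2 fold change of 1.22 for fetal HSC against early EMP. Amd1, which decarboxylates S-adenosylmethionine for the same pathway, was at 12.8, 23.4 and 27.2 FPKM, with a log2 fold change of 1.03. These were the 2 of 5 polyamine genes at least 2-fold apart in that comparison, against 16.7% of genes with a symbol, and none of the 5 was in the other comparisons. The early EMP library was thus lowest for both enzymes, as it was for Ddc, and it was highest for Hdc. The polyamine acetyltransferase Sat1 was at 1114, 1512 and 1605 FPKM and the antizyme Oaz1, an inhibitor of Odc1, at 885, 995 and 1054 FPKM.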
